A study of Mus musculus with 45 samples.

Results

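The 10 genes described here were the core circadian clock genes and the clock-driven PAR bZIP genes of mouse embryonic fibroblasts (MEFs): Dbp, Tef, Per1, Per2, Per3, Nr1d1, Nr1d2, Arntl (also called Bmal1), Cry1 and Cry2. They were taken by name, by matching gene symbols to the Ensembl identifiers of the deposited count table, and all 10 were found among its 37991 genes. The set was chosen by way of 1 measured value, the low count of Dbp 3 h after TNF in p53KO cells, so that difference is described here without a test. The study stimulated p53KO and WT primary MEFs of strain C57BL/6, embryonic fibroblasts grown for only a few passages, with IL-1b, TNF (both at 10 ng/ml) or LPS (at 100 ng/ml), and sequenced poly(A) RNA at 0, 0.5, 1, 3 and 8 h. According to the series' design text, cells lacking p53 last long enough in culture for later genetic work, and their response was set beside that of WT littermate cells. The p53KO cells (genotype p53-/-) were 2 replicates, labelled KO-1 and KO-2, with 1 library each for every stimulus and time (30 libraries). The labels do not say whether KO-1 and KO-2 came from separate embryos. WT cells had 1 library for every stimulus and time (15 libraries). Both genotypes were kept overnight in low-serum medium before the stimulus, and each stimulus series had its own 0 h libraries, labelled as having received no agent. Libraries of cells left without a stimulus for 0.5 to 8 h were not analysed here, so a change after a stimulus cannot be told apart from a change with time since the start of the experiment.

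The mammalian clock is a transcriptional feedback loop. The proteins of Clock and Arntl bind E-box elements as a pair and switch on the Per and Cry genes, whose proteins then hold that pair back. The same pair drives Nr1d1 and Nr1d2, which encode the REV-ERB receptors and repress Arntl through ROR elements, where ROR receptors activate. It also drives the PAR bZIP activators Dbp and Tef, which bind D-box elements, found for example in the Per3 promoter, where Nfil3 represses. In cultured fibroblasts, serum and many signals act on this loop, and Per1 is known as a gene that can respond at once.

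The promoters of the 5 members with an E-box, a D-box or a ROR core in the stretch searched are shown. RefSeq (GRCm38.p6) gave 12 windows for 9 of the 10 members, each from 250 bases before to 50 bases after a transcript start, and Per2 had no entry. The windows are written 5′ to 3′ on the strand of the gene, with the element in capitals. Capitals mark the E-box CACGTG in the first window of Tef (chr15:81802423-81802722, plus strand), the first window of Per1 (chr11:69098699-69098998, plus strand) and the window of Cry1 (chr10:85185005-85185304, minus strand). They mark a pair of D-boxes of the letters TTATGTAA in Per3 (chr4:151044616-151044915, minus strand) and the ROR core TAGGTCA in the second window of Arntl (chr7:113207261-113207560, plus strand).
Tef: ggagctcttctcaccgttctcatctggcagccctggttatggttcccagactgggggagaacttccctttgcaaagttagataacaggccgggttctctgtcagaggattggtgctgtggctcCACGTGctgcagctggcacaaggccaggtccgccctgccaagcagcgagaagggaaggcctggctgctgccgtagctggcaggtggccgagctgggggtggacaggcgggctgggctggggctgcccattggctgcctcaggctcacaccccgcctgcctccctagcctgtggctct
Per1: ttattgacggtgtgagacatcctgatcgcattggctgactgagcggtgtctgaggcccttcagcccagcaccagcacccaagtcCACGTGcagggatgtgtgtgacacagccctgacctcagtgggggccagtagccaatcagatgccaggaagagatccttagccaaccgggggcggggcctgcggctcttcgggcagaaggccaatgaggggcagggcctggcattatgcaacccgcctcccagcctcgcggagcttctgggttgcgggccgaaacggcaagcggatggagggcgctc
Cry1: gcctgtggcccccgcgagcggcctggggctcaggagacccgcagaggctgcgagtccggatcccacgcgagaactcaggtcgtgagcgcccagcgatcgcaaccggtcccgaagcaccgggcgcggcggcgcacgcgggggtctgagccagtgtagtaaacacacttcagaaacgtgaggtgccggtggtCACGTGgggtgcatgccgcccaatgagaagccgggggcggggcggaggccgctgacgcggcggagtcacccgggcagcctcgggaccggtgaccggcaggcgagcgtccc
Per3: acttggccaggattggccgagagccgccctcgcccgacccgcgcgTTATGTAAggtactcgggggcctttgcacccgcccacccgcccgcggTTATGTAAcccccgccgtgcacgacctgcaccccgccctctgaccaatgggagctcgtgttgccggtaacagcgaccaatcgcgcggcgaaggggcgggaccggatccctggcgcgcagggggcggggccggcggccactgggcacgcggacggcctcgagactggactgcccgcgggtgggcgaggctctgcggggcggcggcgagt
Arntl: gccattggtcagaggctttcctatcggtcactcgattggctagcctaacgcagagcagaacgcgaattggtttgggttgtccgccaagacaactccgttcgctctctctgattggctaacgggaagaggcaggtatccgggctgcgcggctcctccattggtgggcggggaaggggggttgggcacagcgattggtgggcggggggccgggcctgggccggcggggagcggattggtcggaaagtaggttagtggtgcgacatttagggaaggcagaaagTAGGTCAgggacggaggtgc
Counted from the transcript start, the E-box lay at -127 to -122 in Tef, at -166 to -161 in Per1 and at -60 to -55 in Cry1, and the second window of Tef held one as well. The D-boxes of Per3 lay at -205 to -198 and at -158 to -151, and the ROR core of Arntl at 31 to 37. Read on both strands, the E-box stood in 7.15% of 32851 promoter windows of all genes, a D-box (TTATGTAA or TTACGTAA) in 1.06% and the ROR core in 2.61%. The NF-kB consensus, present in 8.46% of all windows, was found in the second window of Tef and in that of Cry2. The CRE TGACGTCA (1.79% of all windows) and the CArG box (1.63%) were found in no member's window. The windows of Dbp, Nr1d1, Nr1d2 and Cry2 held no E-box, D-box or ROR core of these letters. A match is a description of letters in these windows only.

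Reads assigned to genes totalled 5619870 to 15355994 per library (median 9347770), and levels are given as CPM, a gene's reads scaled to the library's total after TMM adjustment. Trp53, the deleted gene, had 50.9 to 86.5 CPM in the 30 p53KO libraries, against 158 to 293 CPM in the 15 WT libraries; the deleted stretch of the gene is not given in the labels, so these reads check the labels only in part. All 11 fibroblast markers passed the expression filter, and together they summed to 30613 to 40145 CPM in p53KO libraries and 31008 to 38497 CPM in WT libraries. Myod1 had a median of 0 CPM, and the medians of Pecam1, Cdh5, Epcam and Cdh1 lay between 0.274 and 0.559 CPM. Other muscle, epithelial and endothelial markers were higher, with medians of 106 CPM for Des, 19.9 CPM for Krt18 and 13.4 CPM for Kdr. Macrophage markers were present at a low level, with Lyz2 the highest at a median of 238 CPM and Ptprc at 8.48 CPM. Within each line the level of a gene moved with its transcript length in some libraries. KO-2 IL-1b 0.5 h, WT IL-1b 3 h and KO-1 IL-1b 0.5 h lay lowest, with rank correlations of the deviation of a gene's level and its length of -0.631, -0.513 and -0.423 over 9559 genes, where the other 42 libraries lay between -0.258 and 0.421. KO-1 TNF 0 h (0.421) and KO-1 TNF 8 h (0.391) lay highest, and each was left out in turn like every other p53KO library. Values of members that rest on the IL-1b series, which holds the 3 lowest, are also given as the mean of TNF and LPS alone where that alters a call. For the wider clock list described below, only the p53KO mean at 3 h was checked in this way. In RNA of whole cultures, fewer cells of a type and less RNA per cell cannot be told apart.

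At 0 h, Arntl was the most abundant member per length of transcript and Per2 the least. Divided by the length of the longest coding transcript, Arntl had 15.4 ± 0.593 CPM per kb in p53KO cells (SD, n = 6 libraries) and 17.4 ± 1.39 CPM per kb in WT cells (SD, n = 3). In p53KO cells Tef (7.98 CPM per kb), Per1 (7.67), Nr1d2 (7.24) and Cry1 (6.84) came next, and each overlapped its neighbour in this order over the 6 libraries. Nr1d1 (5.63 CPM per kb) lay below them, and Cry2 (4.16) and Dbp (3.48) overlapped each other. Per3 (0.887 CPM per kb) and Per2 (0.569) were at the bottom and did not overlap. In WT cells Nr1d1 stood next after Arntl and Tef, at 8.84 ± 0.656 CPM per kb (SD, n = 3), overlapping Nr1d2 at 8.17 CPM per kb.

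The PAR bZIP genes Dbp and Tef were lower at 3 h than at 0 h after each stimulus, and at 8 h they lay nearer to 0 h again. Dbp, a D-box activator whose own transcript is among the most strongly rhythmic in mouse liver, had 1.32 and 1.3 CPM in p53KO cells 3 h after IL-1b, against 5.65 and 6.67 CPM at 0 h. After LPS it had 1.41 and 1.0 CPM at 3 h, against 5.94 and 7.67 CPM at 0 h. After TNF it had 0.461 and 0.544 CPM at 3 h (4 reads in each library), against 6.76 and 5.63 CPM at 0 h. No p53KO library at 3 h reached the lowest of the 6 at 0 h. The log2 difference was -2.22 ± 0.38 (SE) after IL-1b (edgeR adjusted p = 4.57e-05) and -2.49 ± 0.40 after LPS (edgeR adjusted p = 1.37e-05). After TNF it was -3.60 ± 0.50, the value known beforehand. At 1 h Dbp had a median of 4.52 CPM over the 6 p53KO libraries (2.74 to 7.22), against 6.30 CPM at 0 h (5.63 to 7.67), and the groups overlapped. The mean difference over the 3 stimuli at 1 h was -0.50 ± 0.17 (edgeR adjusted p = 0.0401), and it was not called without any 1 of 6 libraries (-0.46 to -0.32) nor for TNF and LPS alone (-0.59). At 8 h it had 1.69 and 1.71 CPM after TNF, 3.04 and 2.82 CPM after LPS and 4.79 and 4.40 CPM after IL-1b. The difference from 0 h at 8 h was called after TNF (-1.86 ± 0.37, edgeR adjusted p = 0.000479) and LPS (-1.22 ± 0.31, edgeR adjusted p = 0.00354), and the LPS value was -1.02 and no longer called without KO-2 LPS 0 h. After IL-1b at 8 h it was -0.42 ± 0.29 (95% interval -1.02 to 0.19). The TNF value at 8 h is set against the same 0 h libraries as the difference known beforehand, so its call is not independent of that difference.

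Tef, the second PAR bZIP activator, was better covered than Dbp and moved within narrower limits. It had 16.6, 18.6 and 21.2 CPM (lowest, median and highest) in the 6 p53KO libraries at 3 h, against 32.1, 34.9 and 38.9 CPM at 0 h. The 3 h and 0 h libraries did not overlap, and the 8 h libraries (21.7, 23.7 and 27.8 CPM) lay between them. The log2 difference at 3 h was -1.0 ± 0.09 after IL-1b (edgeR adjusted p = 4.59e-09), -0.70 ± 0.10 after TNF (edgeR adjusted p = 3.86e-06) and -1.05 ± 0.10 after LPS (edgeR adjusted p = 2.35e-09). At 8 h it was -0.42 ± 0.09, -0.58 ± 0.09 and -0.59 ± 0.09 in the same order of stimuli, and each was called (edgeR adjusted p = 0.000989, 5.11e-05 and 9.16e-06). At 0.5 and 1 h no stimulus gave a called difference of Tef, and the mean over the 3 stimuli was -0.10 (95% interval -0.20 to 0.00) and -0.11 (95% interval -0.21 to -0.01). In the deposited positions (mm9), Dbp shares 689 bases with Sphk2, which is transcribed from the opposite strand. Sphk2 had 24.4 ± 2.41 CPM at 3 h, against 32.9 ± 2.26 CPM at 0 h in p53KO cells (SD, n = 6 each). Whether counting used the strand is not given in the sources used here, so reads in the shared stretch may not be told apart.

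**Figure D1:**
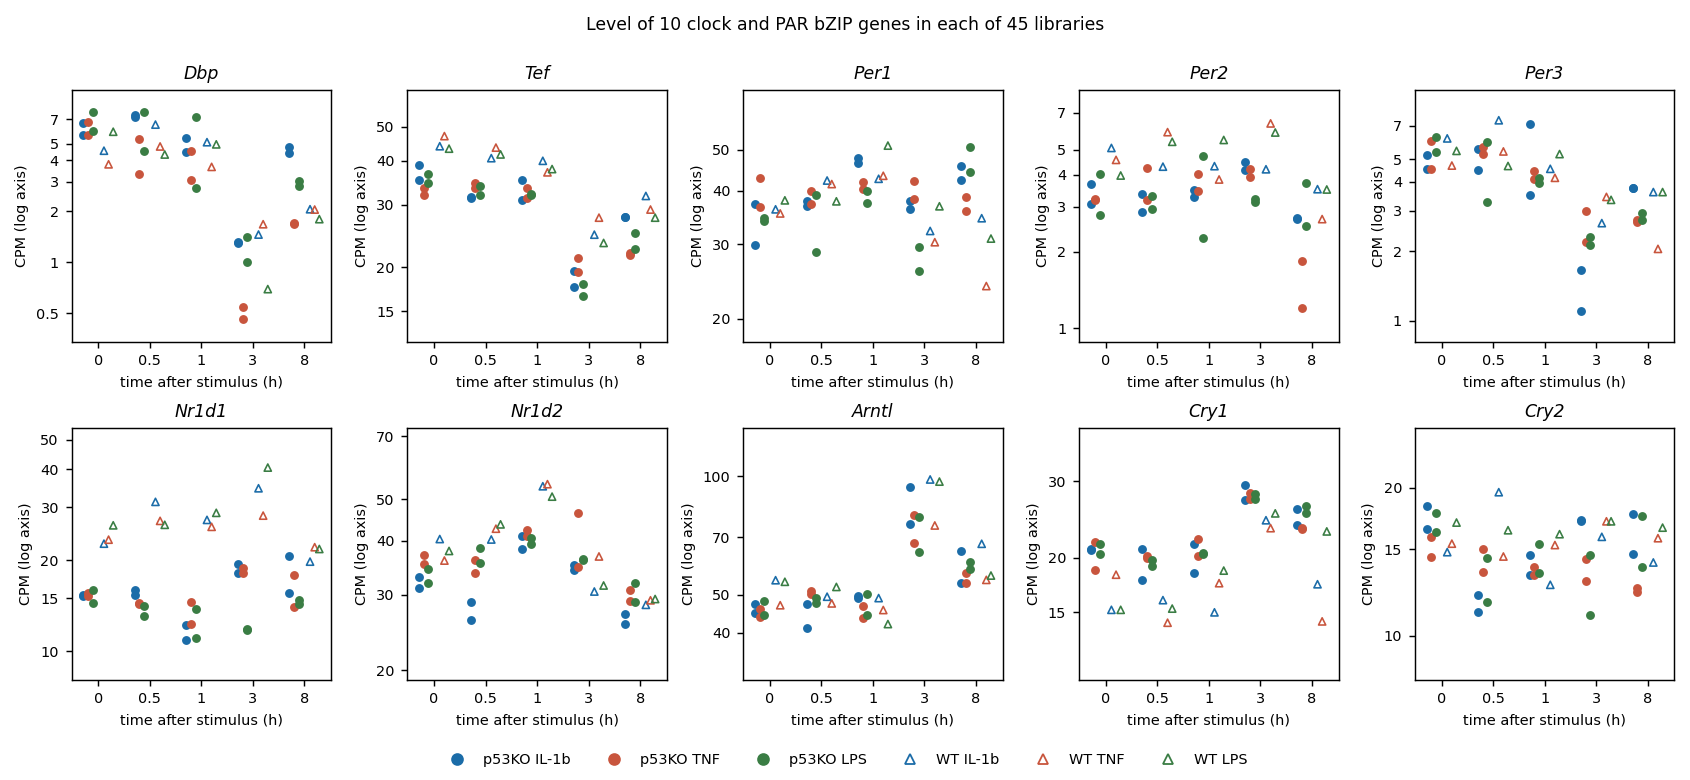
Level of each member (CPM, log axis) by time after the stimulus, with filled circles for the 30 p53KO libraries, open triangles for the 15 WT libraries and colours for the stimulus. In p53KO cells Dbp, Tef and Per3 have their lowest group means at 3 h, where Arntl and Cry1 have their highest, and the WT points of Nr1d1 lie above the p53KO points at 0 h.

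Of the Period genes, which encode the partners of the CRY proteins in the repressing complex, Per3 fell at 3 h while Per1 and Per2 had no called difference at that time. Per3 had 1.10, 2.16 and 2.99 CPM (lowest, median and highest) in the 6 p53KO libraries at 3 h, against 4.55, 5.31 and 6.22 CPM at 0 h, without overlap. The lowest pair of libraries at 3 h, 1.10 and 1.66 CPM, was that of IL-1b. The log2 difference was -1.83 ± 0.35 after IL-1b (edgeR adjusted p = 0.000145), -1.38 ± 0.32 after LPS (edgeR adjusted p = 0.000928) and -1.04 ± 0.32 after TNF (edgeR adjusted p = 0.0137). The TNF value was -0.82 and no longer called without KO-1 TNF 3 h, and likewise -0.82 without KO-2 TNF 0 h. At 8 h Per3 had 2.67, 2.84 and 3.76 CPM over the 6 libraries, still below the lowest at 0 h. The 8 h difference was -1.03 ± 0.29 after LPS (edgeR adjusted p = 0.00642) and -0.97 ± 0.31 after TNF (edgeR adjusted p = 0.0202), with the TNF call lost without either TNF 8 h library (-0.94 and -0.98) or without KO-2 TNF 0 h (-0.75). After IL-1b it was -0.38 ± 0.28 (95% interval -0.96 to 0.19).

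Per1, the Period gene that responds to many acute signals, changed little, and each of its called differences from 0 h in p53KO cells was a rise. It had 37.4, 41.2 and 47.7 CPM (lowest, median and highest) in p53KO libraries at 1 h, against 29.9, 35.5 and 42.9 CPM at 0 h, and the groups overlapped. Averaged over the 3 stimuli, the 1 h difference was 0.24 ± 0.07 (edgeR adjusted p = 0.0130), but it was 0.11 for TNF and LPS alone and no longer called, and neither was it without KO-2 IL-1b 0 h (0.19) or KO-2 TNF 0 h (0.20). At 3 h after LPS it had 26.0 and 29.5 CPM, against 34.0 and 34.5 CPM at 0 h, a log2 difference of -0.30 ± 0.13 that missed the threshold (edgeR adjusted p = 0.0541). At 8 h after LPS it had 44.3 and 50.7 CPM, above both 0 h libraries, and the difference was 0.47 ± 0.12 (edgeR adjusted p = 0.00233). At 8 h after IL-1b it had 42.4 and 45.8 CPM, against 37.2 and 29.9 CPM at 0 h (0.39 ± 0.12, edgeR adjusted p = 0.0152), a call that was lost without KO-2 IL-1b 0 h (0.24) or KO-2 IL-1b 8 h (0.33). At 8 h after TNF it had 38.8 and 35.8 CPM, against 42.9 and 36.6 CPM at 0 h (-0.08, 95% interval -0.33 to 0.17).

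Per2 was the least abundant member per length, with 7 to 51 reads in each p53KO library, and its counts limit what can be seen. It had 3.14, 4.05 and 4.50 CPM (lowest, median and highest) in p53KO libraries at 3 h, against 2.78, 3.18 and 4.02 CPM at 0 h. At 8 h it had 1.20, 2.60 and 3.70 CPM, with the lowest pair, 1.83 and 1.20 CPM, after TNF. The mean difference over the 3 stimuli at 8 h was -0.47 ± 0.17 (edgeR adjusted p = 0.0243). It lost the call without KO-1 LPS 0 h (-0.37), KO-1 LPS 8 h (-0.38), KO-2 IL-1b 0 h (-0.42) or KO-2 TNF 8 h (-0.41).

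Cry1, which encodes a strong repressor of the Clock and Arntl pair, rose at 3 h after each stimulus. It had 27.1, 27.7 and 29.4 CPM (lowest, median and highest) in the 6 p53KO libraries at 3 h, against 18.8, 20.9 and 21.7 CPM at 0 h, without overlap. The log2 difference was 0.44 ± 0.10 in the IL-1b series, 0.45 ± 0.10 with TNF and 0.40 ± 0.10 with LPS (edgeR adjusted p = 0.000857, 0.00134 and 0.00205), the closest agreement between stimuli of any called member at that time. At 8 h the 6 libraries had 23.3, 24.5 and 26.3 CPM, still above every 0 h library, with a mean difference of 0.25 ± 0.06 (edgeR adjusted p = 0.000831). Cry2, its paralog, had 11.0, 14.4 and 17.2 CPM at 3 h, against 14.5, 16.4 and 18.4 CPM at 0 h, and the groups overlapped. Its mean difference was -0.36 ± 0.08 at 0.5 h (edgeR adjusted p = 0.00760), -0.24 ± 0.08 at 1 h (edgeR adjusted p = 0.0353) and -0.20 ± 0.08 at 3 h (edgeR adjusted p = 0.0398). The 0.5 h value was -0.25 and not called for TNF and LPS alone. The 1 h value was not called without any of 7 libraries (-0.25 to -0.21) nor the 3 h value without any of 7 (-0.19 to -0.13).

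Arntl, the activator partner of Clock and the target of the REV-ERB repressors, rose at 3 h after each stimulus. It had 64.2, 77.0 and 94.0 CPM (lowest, median and highest) in the 6 p53KO libraries at 3 h, against 43.8, 45.6 and 48.3 CPM at 0 h, without overlap. The log2 difference was 0.87 ± 0.11 after IL-1b (edgeR adjusted p = 5.87e-07), 0.71 ± 0.12 after TNF (edgeR adjusted p = 2.65e-05) and 0.62 ± 0.11 after LPS (edgeR adjusted p = 6.44e-05). At 8 h it had 53.4, 57.4 and 64.4 CPM, above every 0 h library and overlapping the 3 h libraries at their lower end, and the mean difference was 0.33 ± 0.07 (edgeR adjusted p = 0.000149). At 0.5 and 1 h the mean difference was 0.05 (95% interval -0.08 to 0.19) and 0.04 (95% interval -0.09 to 0.18).

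The REV-ERB genes changed less, and not together. Nr1d2 had 38.4, 40.9 and 42.4 CPM (lowest, median and highest) in the 6 p53KO libraries at 1 h, against 31.0, 33.6 and 37.1 CPM at 0 h, without overlap, a mean difference of 0.26 ± 0.06 (edgeR adjusted p = 0.00147). At 3 h the mean difference of 0.14 ± 0.06 (edgeR adjusted p = 0.0435) was 0.06 and not called without KO-1 TNF 3 h, and not called without any 1 of 5 other libraries (0.12 to 0.15) nor for TNF and LPS alone (0.15). At 8 h it had 25.7, 28.9 and 31.9 CPM, and the mean difference was -0.23 ± 0.06 (edgeR adjusted p = 0.00210). Nr1d1 had 10.9, 12.3 and 14.6 CPM at 1 h, against 14.5, 15.4 and 15.9 CPM at 0 h. The groups overlapped in 1 library each, and the mean difference of -0.29 ± 0.08 (edgeR adjusted p = 0.00859) was -0.24 and not called for TNF and LPS alone. At 3 h Nr1d1 had 19.4 and 18.1 CPM after IL-1b, 18.2 and 18.9 CPM after TNF and 11.9 and 11.8 CPM after LPS. At 0 h of the same series it had 15.3 and 15.4, 15.2 and 15.6, and 15.9 and 14.5 CPM. Only the LPS difference from 0 h was called, at -0.35 ± 0.14 (edgeR adjusted p = 0.0452). That call was lost without any 1 of the 4 libraries it rests on (-0.42 to -0.29). The F test over the 4 times did not call Nr1d1 as changing differently between any 2 of the stimuli. Nr1d1 shares 1075 bases (mm9) with Thra on the opposite strand, and Thra had 35.5 ± 3.72 CPM at 3 h, against 50.8 ± 2.81 CPM at 0 h in p53KO cells (SD, n = 6 each).

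Counted over the members, more were called at 3 and 8 h than before, as over all genes. In the mean over the 3 stimuli, 1 of 10 members was called at 0.5 h (3.34% of the 13851 genes tested) and 5 at 1 h (19.6%). The 5 at 1 h became 2 by DESeq2 and 3 to 5 with 1 library left out. At 3 h 3 were higher (30.4% of all genes) and 4 lower (32.2%), Dbp among the lower with a mean that contains the TNF value known beforehand, and at 8 h 3 were higher (25.3%) and 5 lower (26.7%). The median log2 difference of the members was 0.01 at 3 h and -0.20 at 8 h, beside -0.02 and -0.01 for all genes. The shares at 3 h lay near those of all genes, so the counts do not set these genes apart at that time. The 4 higher and 4 lower members at 8 h against 3 h (28.3% and 28.0% of all genes) included Dbp (1.60 ± 0.29), Per3 (0.62 ± 0.21), Tef (0.38 ± 0.06) and Per1 (0.31 ± 0.07), which were higher at 8 h. The value of Dbp again contains its level 3 h after TNF, known beforehand, and is given as a description. Per2 (-0.67 ± 0.17), Arntl (-0.41 ± 0.06), Nr1d2 (-0.37 ± 0.06) and Cry1 (-0.18 ± 0.06) were lower at 8 h than at 3 h. Leaving out the IL-1b series took Per3 to 0.21 at 8 h against 3 h, no longer called, and leaving out KO-1 IL-1b 3 h took it to 0.52, not called.

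By single stimulus, 2 members were higher and 3 lower 3 h after IL-1b (21.0% and 21.8% of all genes), and again 2 and 3 after TNF (18.4% and 17.6%), a count that includes Dbp. After LPS 2 were higher and 5 lower (21.9% and 22.1%). Tef, Per3, Arntl and Cry1 were called in each of the 3 series, and Dbp was called with IL-1b and with LPS. LPS added Cry2 (-0.41 ± 0.15, edgeR adjusted p = 0.0245), whose call was lost without KO-1 LPS 3 h (-0.22) or KO-1 LPS 0 h (-0.34), and Nr1d1. At 8 h 2 were higher and 1 lower after IL-1b (12.5% and 11.8% of all genes), none higher and 5 lower after TNF (14.5% and 14.1%), and 3 higher and 3 lower after LPS (17.0% and 17.2%). With 10 members these counts are a few genes above or below the background shares. The 5 called after TNF at 8 h became 2 or 3 when any 1 of its 4 libraries was left out, and 2 by DESeq2. At 0.5 h 1 member, Cry2 (-0.59 ± 0.13, edgeR adjusted p = 0.00964), was called after IL-1b (7.39% of all genes), and 0 after TNF (0.751%) and LPS (0.527%), where 0 and 1 members had an unadjusted p under 0.05. The Cry2 call was lost without KO-1 IL-1b 0 h (-0.51) or either 0.5 h library (-0.53 and -0.64). At 1 h Per1 (0.49 ± 0.11, edgeR adjusted p = 0.00736) was called after IL-1b (5.94%), though not without KO-2 IL-1b 0 h (0.34) or KO-1 IL-1b 1 h (0.47), and 0 after TNF (5.85%) and LPS (5.31%), where 1 and 1 had an unadjusted p under 0.05. DESeq2 called 0 members after TNF or LPS at 0.5 and 1 h as well.

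**Figure D2:**
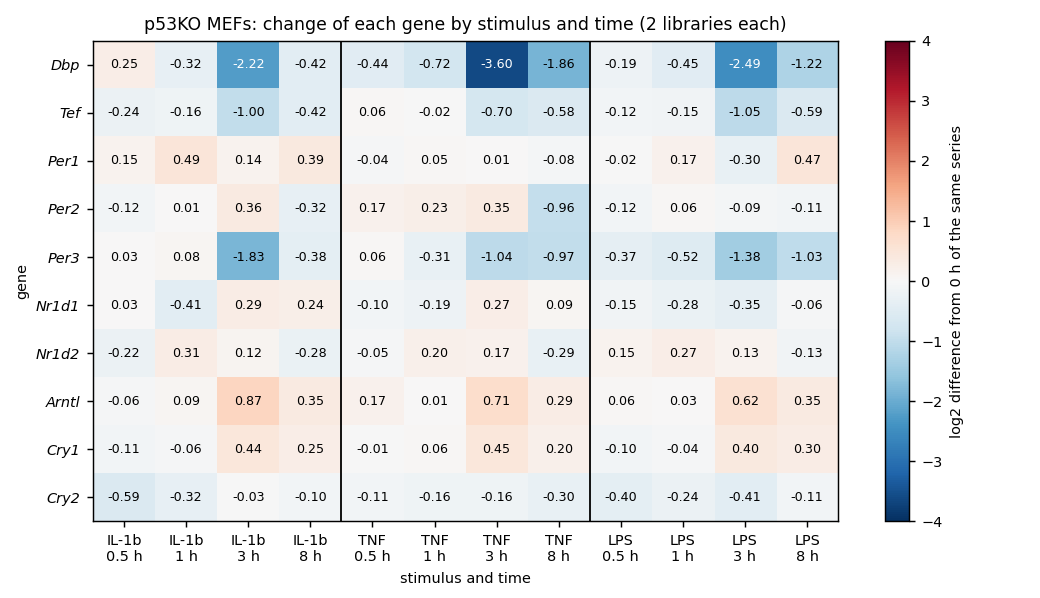
Log2 difference from 0 h of the same series for each member (rows) at each time after IL-1b, TNF and LPS (columns) in p53KO cells, with blue for lower and red for higher levels, from 2 libraries a group. The 3 h columns hold the lowest values of Dbp, Tef and Per3 and the highest of Arntl and Cry1 for each stimulus.

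Other measurements moved with the results at 3 and 8 h. The 5 neural markers (Nes, Tubb3, Map2, Gfap and Sox10), of which Nes was the most abundant at 90.0 to 448 CPM and Gfap reached no more than 2.02 CPM, summed to 434 to 522 CPM in p53KO libraries at 3 h, against 227 to 284 CPM at 0 h. The 8 macrophage markers, which include Cd14, summed to 361 to 522 CPM at 3 h, against 277 to 361 CPM at 0 h, the 6 epithelial markers to 34.2 to 51.1 CPM, against 27.0 to 30 CPM, and the 5 muscle markers to 138 to 165 CPM, against 105 to 132 CPM. In WT libraries the neural markers summed to 339 to 345 CPM at 3 h, against 171 to 191 CPM at 0 h, and the macrophage markers to 567 to 610 CPM, against 394 to 406 CPM. The fibroblast markers summed to 32134 to 40145 CPM at 3 h and 31014 to 35115 CPM at 0 h, and the 6 endothelial markers to 20.8 to 25.9 CPM and 20.1 to 23.5 CPM. At 8 h the macrophage markers summed to 406 to 502 CPM in p53KO libraries, against 277 to 361 CPM at 0 h, and to 515 to 535 CPM in WT libraries, against 394 to 406 CPM, while the neural markers summed to 262 to 388 CPM in p53KO libraries and overlapped those at 0 h. The part of these lists in the results was not tested.

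Most members did not differ between stimuli in how they changed, as far as the test could show. The F test over the 4 times called 1 member for LPS minus TNF (5.15% of all genes), 0 for LPS minus IL-1b (6.90%) and 0 for IL-1b minus TNF (1.42%), where 3 and 3 members had an unadjusted p under 0.05. The called member was Per1 (edgeR adjusted p = 0.0206), whose change from 0 h after LPS less that after TNF was -0.32 ± 0.17 at 3 h and 0.55 ± 0.17 at 8 h. Leaving out KO-1 LPS 3 h, KO-2 LPS 8 h, KO-2 TNF 3 h or either TNF 8 h library ended that call (edgeR adjusted p = 0.0620 to 0.153). The same difference at 3 h had a 95% interval of -0.63 to -0.06 for Tef (-0.35), -0.42 to 0.24 for Arntl (-0.09) and -0.35 to 0.25 for Cry1 (-0.05), none of them called. For Dbp it was 1.11 ± 0.77, a value that contains the one known beforehand.

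WT cells changed in the same direction at the members that moved most. With 1 WT library a group, the WT means over the 3 stimuli set 3 libraries against 3, and their spread is that of the p53KO groups. At 3 h 3 members were higher (22.3% of all genes) and 4 lower (22.5%). Dbp had 1.46, 1.68 and 0.696 CPM in WT cells at 3 h in the IL-1b, TNF and LPS series, against 4.56, 3.79 and 5.90 CPM at 0 h, without overlap. Its WT difference was -1.95 ± 0.35 (edgeR adjusted p = 5.98e-05), beside -2.77 ± 0.25 in p53KO cells, a value that contains the TNF series. Tef had 24.7, 27.6 and 23.4 CPM in WT cells at 3 h, against 44, 47.0 and 43.3 CPM at 0 h, a difference of -0.83 ± 0.07 (edgeR adjusted p = 1.01e-09) beside -0.91 ± 0.06 in p53KO cells. Arntl had 98.0, 74.9 and 96.8 CPM in WT cells at 3 h, against 54.4, 47.0 and 53.9 CPM at 0 h. Its difference was 0.79 ± 0.09 (edgeR adjusted p = 1.06e-07), beside 0.74 ± 0.06 in p53KO cells. Cry1 had 24.4, 23.4 and 25.3 CPM in WT cells at 3 h, against 15.2, 18.3 and 15.2 CPM at 0 h, a difference of 0.59 ± 0.09 (edgeR adjusted p = 4.56e-06) beside 0.43 ± 0.06 in p53KO cells. Per3 in WT cells differed by -0.79 ± 0.24 (edgeR adjusted p = 0.0101), which was -0.58 and not called for TNF and LPS alone. The remaining WT calls at 3 h were Nr1d1 (0.50 ± 0.10, edgeR adjusted p = 0.000122) and Nr1d2 (-0.21 ± 0.08, edgeR adjusted p = 0.0388), the second not called for TNF and LPS alone (-0.12).

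At 1 h 3 members were called in WT cells (14.3% of all genes), among them Nr1d2 with 53.6, 54.2 and 50.7 CPM at 1 h after IL-1b, TNF and LPS, against 40.4, 36.0 and 37.9 CPM at 0 h (0.47 ± 0.08, edgeR adjusted p = 0.000144). Per1 (0.32 ± 0.10) and Tef (-0.22 ± 0.07) were not called for TNF and LPS alone. At 8 h 0 members were higher in WT cells (13.6% of all genes) and 5 lower (14.0%), namely Dbp (-1.24 ± 0.32), Per3 (-0.85 ± 0.26), Tef (-0.60 ± 0.07), Nr1d2 (-0.40 ± 0.09) and Per1 (-0.31 ± 0.10). For Per3 the 8 h value was -0.89 and not called for TNF and LPS alone. Of the members called in p53KO cells by single stimulus, the WT library had moved the same way at 3 h in 5 of 5 with IL-1b, 5 of 5 with TNF and 5 of 7 with LPS, where the 5 with TNF include Dbp, taken by the value known beforehand. At 8 h it had done so in 2 of 3 with IL-1b, 5 of 5 with TNF and 5 of 6 with LPS. With IL-1b it had in 0 of 1 at 0.5 h and in 1 of 1 at 1 h.

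**Figure D3:**
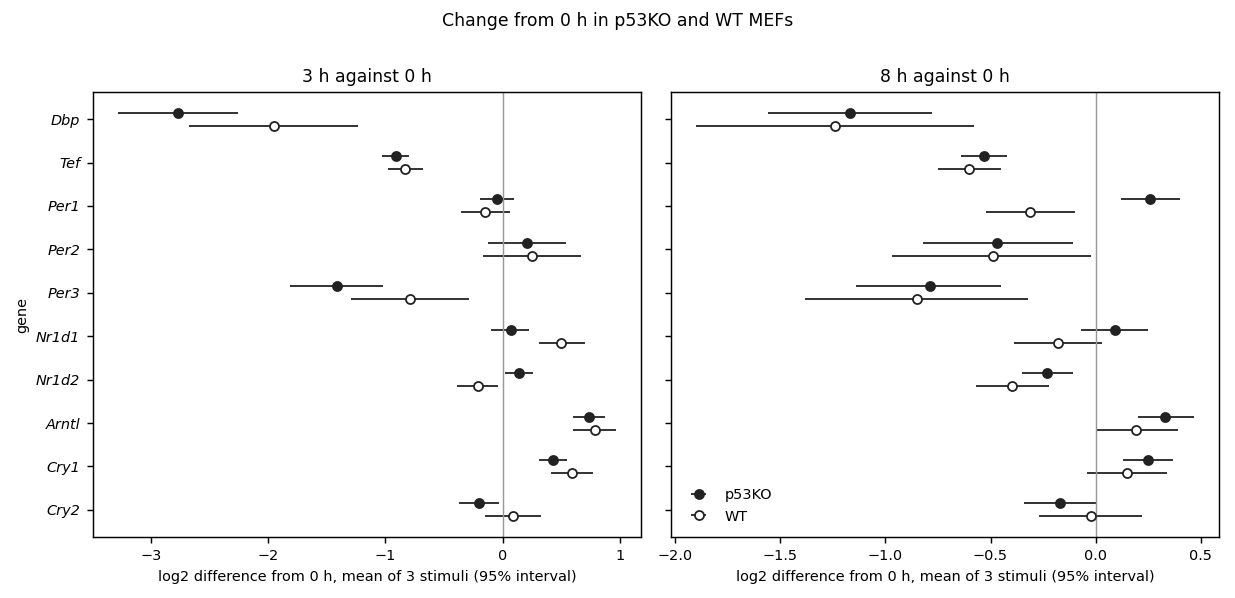
Log2 difference from 0 h, averaged over IL-1b, TNF and LPS, at 3 h (left) and 8 h (right), with filled circles for p53KO (6 libraries against 6) and open circles for WT (3 against 3) and bars for the 95% interval. Tef, Arntl and Cry1 lie close together in both genotypes at 3 h, while Nr1d1 and Nr1d2 at 3 h and Per1 at 8 h part.

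The difference between genotypes in these changes was tested itself. With 1 WT line, genotype and line cannot be told apart in any of these differences. Over the 4 times, 3 members were called for IL-1b (5.74% of all genes), 0 for TNF (0.462%), where 2 had an unadjusted p under 0.05, and 2 for LPS (2.66%). Nr1d1 was called for both IL-1b (edgeR adjusted p = 0.0126) and LPS (edgeR adjusted p = 0.0109). It had 11.9 and 11.8 CPM in p53KO cells 3 h after LPS and 15.9 and 14.5 CPM at 0 h, where the WT libraries had 40.5 CPM at 3 h and 26.1 CPM at 0 h. The p53KO change less the WT change was -0.99 ± 0.22 there (edgeR adjusted p = 0.0222), where 0.830% of all genes were called in either direction. This call was lost without KO-1 LPS 0 h (-0.92) or either LPS 3 h library (-1.0 and -0.98), and by DESeq2 (-0.98). In the mean over the 3 stimuli 2 members were called at 3 h (9.98% of all genes), Nr1d1 at -0.44 ± 0.12 (edgeR adjusted p = 0.0249) and Nr1d2 at 0.35 ± 0.10 (edgeR adjusted p = 0.0277), and neither was called for TNF and LPS alone (-0.49 and 0.27) or by DESeq2 (-0.42 and 0.36). At 8 h 1 was called (4.01%), Per1, at 0.57 ± 0.12 (edgeR adjusted p = 0.00852). Per1 had 35.8, 43.3 and 50.7 CPM (lowest, median and highest) in p53KO libraries at 8 h, against 34.5, 23.9 and 30.9 CPM in the WT libraries after IL-1b, TNF and LPS, with overlap of no library. The call of Per1 for LPS over the 4 times (edgeR adjusted p = 0.0168) was lost without KO-2 LPS 8 h (edgeR adjusted p = 0.09). The calls of Cry2 (edgeR adjusted p = 0.0323) and Nr1d2 (edgeR adjusted p = 0.0435) for IL-1b rest on the series with the libraries lowest in that correlation with length. The Cry2 call was lost without either IL-1b 0.5 h library of p53KO or without KO-2 IL-1b 3 h. That of Nr1d2 was lost without KO-1 or KO-2 at 0, 1 or 3 h, without KO-1 at 8 h or KO-2 at 0.5 h (edgeR adjusted p = 0.0506 to 0.13), and after removal of the trend with length and GC content (edgeR adjusted p = 0.138). For the members that moved most at 3 h, the difference between genotypes had intervals of -0.27 to 0.11 for Tef, -0.28 to 0.18 for Arntl, -0.38 to 0.05 for Cry1 and -1.28 to 0.02 for Per3, and none was called. For Dbp the difference was -0.81 ± 0.50, which contains the TNF value known beforehand.

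Taken over all libraries of a line, stimulated ones included, levels of members also differed between the genotypes, most of all for Nr1d1. It had 10.9 to 20.7 CPM in the 30 p53KO libraries, with medians of 15.2 CPM in KO-1 and 14.5 CPM in KO-2, against 19.8 to 40.5 CPM and a median of 26.2 CPM in the 15 WT libraries, and the ranges overlapped only between KO-2 IL-1b 8 h and WT IL-1b 8 h. When the counts of a line's 15 libraries were added up and the 2 p53KO lines set against the WT line (1 residual degree of freedom), Nr1d1 differed by -0.86 ± 0.06 (edgeR adjusted p = 6.96e-05). Thra, which overlaps it, differed by 0.40 ± 0.08 in the opposite direction (edgeR adjusted p = 0.00548). In this test 1 member was higher in p53KO (21.1% of 12918 genes) and 4 lower (19.2%). Cry1 was higher (0.28 ± 0.06, edgeR adjusted p = 0.0111), with medians of 20.9 and 21.7 CPM in KO-1 and KO-2 and 17.4 CPM in WT. Tef was lower (-0.29 ± 0.06, edgeR adjusted p = 0.00706), with medians of 31.3 and 32.3 CPM in KO-1 and KO-2 and 37.9 CPM in WT. Per2 (-0.51 ± 0.14, edgeR adjusted p = 0.0261) and Nr1d2 (-0.18 ± 0.05, edgeR adjusted p = 0.0330) were lower as well, but were not called on the 0 h libraries alone (-0.46 and -0.19). DESeq2 called 2 of these 5 members, Nr1d1 and Tef. With 1 WT line, genotype and line cannot be told apart. Marker lists of other cell types differed between the genotypes as well. At 0 h the epithelial markers summed to 27.0 to 30 CPM in p53KO libraries and 7.94 to 9.27 CPM in WT libraries, the muscle markers to 105 to 132 and 53.2 to 63.3 CPM, the neural markers to 227 to 284 and 171 to 191 CPM, the endothelial markers to 20.1 to 23.5 and 13.6 to 16.7 CPM, and the macrophage markers to 277 to 361 and 394 to 406 CPM, without overlap in any of these lists. Their part in the differences of level was not tested.

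**Figure D4:**
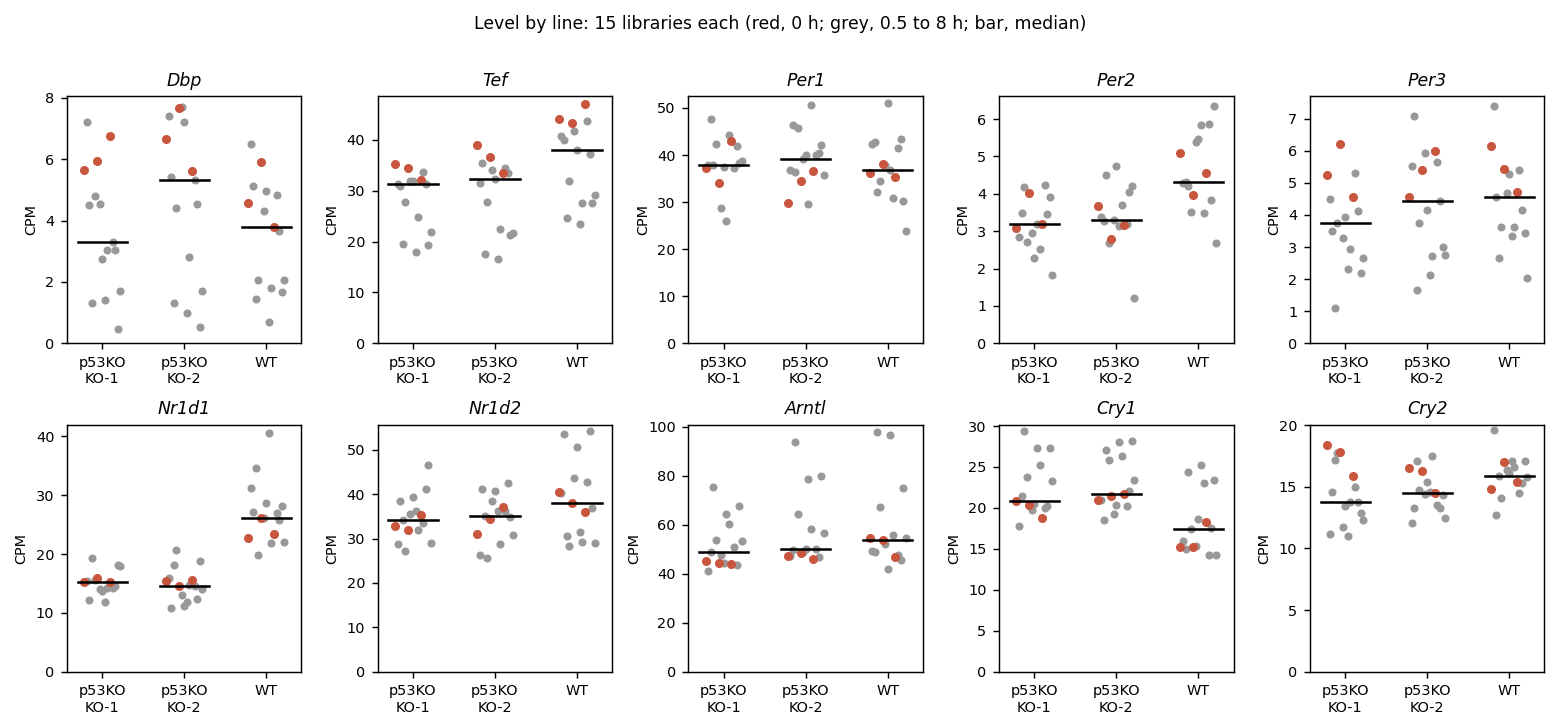
Level of each member (CPM) in the 15 libraries of the p53KO lines KO-1 and KO-2 and of WT, with red points for 0 h, grey points for 0.5 to 8 h and a bar for the median of the line. Nr1d1 shows the widest gap, with medians of 15.2 and 14.5 CPM in p53KO and 26.2 CPM in WT.

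Likeness of pattern was described over the 15 p53KO groups, which include the 3 h groups, so the signs among members already seen to be lower or higher at 3 h were given beforehand. The correlation of group mean log2 CPM was 0.94 for Tef and Per3, 0.90 for Dbp and Tef and 0.94 for Arntl and Cry1, and it was -0.92 for Per3 and Arntl and -0.91 for Tef with Arntl and with Cry1. Nr1d1 and Nr1d2 correlated at -0.46, and Per1 with no other member beyond 0.18 in size. These are descriptions over 15 points that share times, stimuli and libraries, and for Dbp, its nearest genes included, 1 of the points is the value known beforehand. Among the genes with a mean of at least 5 CPM, the 3 closest in pattern to Dbp were Psrc1 (Pearson r = 0.968), Kifc1 (0.968) and Rad51c (0.962), and the 3 closest to Arntl were Vegfa (0.97), Nfkb1 (0.97) and Ptpn1 (0.969). Those closest to Nr1d1 were Medag (0.885), Slc19a2 (0.840) and Exo5 (0.833), and those closest to Per1 were Mgat4a (0.798), Dgat2 (0.750) and Fam214b (0.748). By rank correlation, 0 of the 3 were the same for Dbp, Arntl and Nr1d1 and 1 for Per1.

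A wider list of 26 clock-related genes was also read from the same test, of which 24 passed the expression filter. At 3 h in p53KO cells, averaged over the 3 stimuli, 9 were higher (30.4% of all genes) and 10 lower (32.2%), with a median of -0.11 beside -0.02 for all genes, and DESeq2 called 11 of these 19. Among activators and their antagonists, 2 of 7 were higher and 4 lower. Bhlhe40, an E-box repressor, rose by 0.99 ± 0.05 (edgeR adjusted p = 3.61e-14), Clock by 0.21 ± 0.06 (edgeR adjusted p = 0.00192), and Npas2, which can stand in for Clock, differed by -0.57 ± 0.19 (edgeR adjusted p = 0.0116). Among the 3 tested factors of D-box and ROR elements, the D-box repressor Nfil3 rose by 0.53 ± 0.05 (edgeR adjusted p = 1.21e-09), and Hlf, the remaining PAR bZIP activator, differed by -0.57 ± 0.25 (edgeR adjusted p = 0.0459). Neither Npas2 (-0.27) nor Hlf (-0.52) was called for TNF and LPS alone, and DESeq2 called neither. The Npas2 call was also lost without KO-1 LPS 0 h (-0.46), and that of Hlf without KO-1 IL-1b 3 h, KO-1 LPS 0 h or 3 h, KO-2 0 h of any series or KO-2 TNF 3 h (-0.61 to -0.40). Among kinases, ubiquitin ligases and partners, 3 of 10 were higher and 4 lower. Csnk1e, a kinase of PER proteins, rose by 0.56 ± 0.05 (edgeR adjusted p = 1.03e-10). Fbxl21, which encodes an F-box protein, fell by 1.68 on the log2 scale (edgeR adjusted p = 0.000127), Btrc, a ligase adaptor of PER proteins, by 0.72 (edgeR adjusted p = 6.81e-10) and Timeless by 0.60 (edgeR adjusted p = 5.15e-10). The SE of the Fbxl21 mean was 0.34. By stimulus Fbxl21 differed by -2.86 after TNF, -1.54 after IL-1b and -0.63 after LPS (95% interval -1.70 to 0.43), the last not called. Of 4 output genes, Noct, which encodes the rhythmic protein nocturnin, rose by 2.92 ± 0.06 (edgeR adjusted p = 1.72e-22) and Klf10 by 1.21 ± 0.06 (edgeR adjusted p = 1.57e-14). At 8 h Noct was at 0.48 ± 0.07 and Klf10 at 0.50 ± 0.07 above 0 h, and 8 listed genes were higher (25.3% of all genes) and 5 lower (26.7%). In WT cells at 3 h 5 were higher (22.3%) and 9 lower (22.5%). The change at 3 h differed between genotypes for 7 of the 24 (9.98% of all genes), all 7 with the larger value in p53KO cells. Among them were Noct (0.69 ± 0.11, edgeR adjusted p = 0.000164), Klf9 (0.66 ± 0.10, edgeR adjusted p = 0.000119) and Nfil3 (0.45 ± 0.09, edgeR adjusted p = 0.00157). For Klf9 that was a smaller fall, at -0.15 in p53KO cells and -0.81 in WT cells. At 1 h the called differences of Klf10 (-1.63 ± 0.11), Bhlhe40 (-1.28 ± 0.09) and Noct (-0.52 ± 0.11) went the other way, with the smaller rise in p53KO cells.

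**Figure D5:**
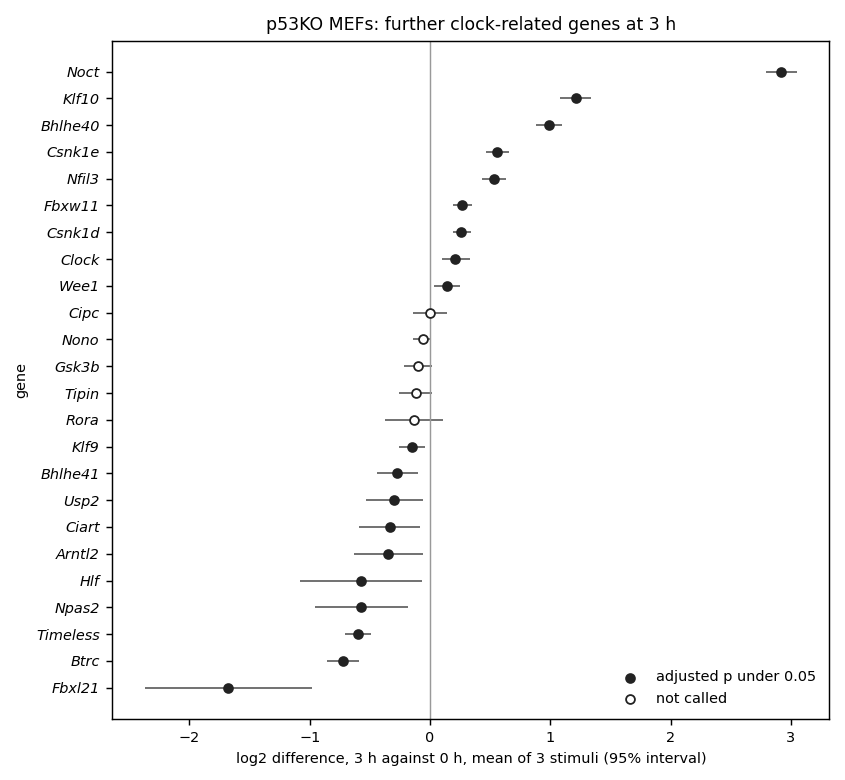
Log2 difference at 3 h from 0 h, averaged over the 3 stimuli in p53KO cells, for the 24 tested genes of the wider clock list, with filled circles for an adjusted p under 0.05, open circles for the rest and bars for the 95% interval. Noct (2.92) and Klf10 (1.21) lie at the upper end and Fbxl21 (-1.68) at the lower end.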

How the data were processed

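Poly(A) RNA of 45 libraries was sequenced as stranded paired-end reads, per the labels' protocols. The deposited table holds raw read counts per Ensembl gene, and STAR, featureCounts, DESeq and the mm9 build are named in the submitters' processing notes; versions, the annotation release and the strand setting of the counting are not given in the sources used here. Of all counts, 24.7% stood in 5 rows that name no gene and were left out, which leaves 5619870 to 15355994 counts per library. Symbols were taken from a reference table that matched 32919 of 37991 gene IDs.

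From these counts, edgeR 4.0.16 (TMM, quasi-likelihood test, 30 groups of genotype, stimulus and time) was fitted to the 13851 genes that reached 1 CPM in 2 or more libraries, with 15 residual degrees of freedom; p-values were adjusted over all genes by Benjamini-Hochberg and called under 0.05. WT groups hold 1 library each and are assumed to vary like the p53KO groups. Times were set against 0 h of the same series, and the genotype level was tested on sums per line over 12918 genes, with libraries that share the name KO-1 or KO-2 taken as 1 line. "Higher" and "lower" refer to log2 differences, with SE and 95% intervals. Intervals cover these libraries only, since the labels do not say that KO-1 and KO-2 came from separate embryos, so p-values measure the spread between these libraries, which may be technical. The alternatives were another scaling (DESeq2 size factors), DESeq2 1.42.0, other filters on low counts, p53KO libraries alone, pooled 0 h libraries, removal of a trend over transcript length and GC content, a replicate block and leaving out each p53KO library in turn; fits without the IL-1b series, and the length and GC correction for other comparisons than p53KO against 0 h, were added after seeing the data. The fitting steps were tested on simulated data. All 10 members, the lists and the rule for likeness (the 3 genes of highest Pearson r over group means, among genes with a mean of at least 5 CPM) were chosen with earlier results of these data known. From the wider clock list 1 gene is not reported here. Promoter windows are those of RefSeq, read on both strands.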

Additional observations from a re-analysis of the deposited data

Results flagged for a closer look

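Each result here is a difference between stimuli or between genotypes in how a member changed, tested itself. Per1 changed differently after LPS than after TNF over the 4 times (edgeR adjusted p = 0.0206). Between p53KO and WT cells, the change after IL-1b differed for Nr1d1 (edgeR adjusted p = 0.0126), Cry2 (edgeR adjusted p = 0.0323) and Nr1d2 (edgeR adjusted p = 0.0435). After LPS it differed for Nr1d1 (edgeR adjusted p = 0.0109) and Per1 (edgeR adjusted p = 0.0168). With 1 library left out in turn, the Per1 call for LPS against TNF was lost in 5 of 20 runs. The members called for the genotype difference fell to as few as 1 of 3 for IL-1b and 1 of 2 for LPS. The Nr1d2 call for IL-1b was also lost after removal of the trend with length and GC content. The p53KO change less the WT change was -0.99 on the log2 scale for Nr1d1 3 h after LPS. Averaged over the 3 stimuli it was -0.44 for Nr1d1 and 0.35 for Nr1d2 at 3 h, and 0.57 for Per1 at 8 h. DESeq2 called the Per1 value (0.58) but none of the 3 values of Nr1d1 and Nr1d2 at 3 h (-0.98, -0.42 and 0.36). Nr1d1 overlaps Thra on the opposite strand, and the change of Thra at 3 h, averaged over the 3 stimuli, differed between genotypes by -0.05 (95% interval -0.32 to 0.22), which was not called. After LPS alone, Thra had 30.9 and 36.8 CPM at 3 h in p53KO cells, against 48.2 and 51.8 CPM at 0 h. In WT cells Thra had 29.8 CPM at 3 h after LPS and 35.2 CPM at 0 h. The part of Thra in the differences of Nr1d1 was not tested. Each WT group is 1 library, so a single WT library decides each value for 1 stimulus and time. With 1 WT line, genotype and line cannot be told apart in these changes, the means over the 3 stimuli included.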

How the results depend on the processing

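No log2 difference called in the main fit and followed here changed direction under any alternative run. The F tests over the 4 times give no direction, genes not called in the main fit were not followed, and no WT library was left out in turn. In p53KO cells the calls at 3 h of Tef, Arntl and Cry1, for each stimulus and for the mean, held in all alternatives run. Those of Dbp for IL-1b and LPS held in all as well. Most counts of members called moved by less than 1.5 times (200 of 224 values from other settings and 210 of 238 with a library left out), and the cause of the others was not tested. With DESeq2 the count was 0 in place of 1 for the mean of the 3 stimuli at 0.5 h, 2 in place of 5 at 1 h, 2 in place of 5 for TNF at 8 h, 1 in place of 3 for WT at 1 h and 3 in place of 5 for WT at 8 h. It was 2 in place of 5 for the genotype level, 0 in place of 2 for the genotype difference in the mean change at 3 h, 0 in place of 1 for that after LPS at 3 h and 11 in place of 19 for the wider clock list. Pooled 0 h libraries gave 2 members in place of 1 for IL-1b at 0.5 h, 3 in place of 1 at 1 h, 5 in place of 3 at 8 h, 2 in place of 0 for TNF at 1 h and 8 in place of 5 at 3 h. Without the IL-1b series the count was 0 at 0.5 h and 1 at 1 h for the mean in p53KO, 1 for WT at 1 h and 0 for the genotype difference at 3 h. For IL-1b at 1 h it was 2 with the filter of 15 libraries and 2 with the length and GC trend removed. With no filter on low counts it was 1 for IL-1b minus TNF and 1 for the genotype difference at 3 h, and from the 0 h libraries alone it was 3 for the genotype level. With a replicate block (the line as a term) IL-1b at 1 h gave 2 in place of 1, and no other count of members moved by over 1.5 times. Over 105 pairs of groups the correlation of same-numbered deviations had a median of 0.191, ran from -0.169 to 0.504 and was over 0.1 in 73, so the test that every pair exceed 0.1 was not met, and the labels name KO-1 and KO-2 in every series without saying what the number marks. Leaving out 1 library in turn gave 0 to 1 members for IL-1b at 0.5 h and at 1 h, 1 to 4 at 8 h, 2 to 3 for TNF at 8 h, 0 to 1 for LPS at 1 h and 3 to 5 for the mean at 1 h. It gave 0 to 1 for LPS minus TNF and for LPS minus IL-1b, 1 to 3 for the genotype difference after IL-1b, 1 to 2 after LPS and 0 to 1 after LPS at 3 h, and 14 to 17 of the wider clock list. DESeq2 was not run for the F tests, and no p53KO library enters the WT means. Depth limits Dbp, with 4 to 12 reads in p53KO libraries at 3 h, and Per2 and Per3 most.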
